A study of Mus musculus with 288 samples.

Results

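Skeletal muscle of mice kept in normoxia was compared between the subjective day and the subjective night. Of the 288 libraries of the series, 24 belong to this comparison: 12 from the time points 1:30, 4:30, 7:30 and 10:30, called day here, and 12 from 13:30, 16:30, 19:30 and 22:30, called night, with 3 mice at each of the 8 time points and 1 mouse per library. The mice were male, wild type C57BL/6J animals of 8 weeks that spent 7 days in normoxia and then 2 days in constant normoxic darkness, and tissue was taken every 3 hours on the second of those days. No light therefore marked the day, and the sources used here do not name which skeletal muscle was taken. The labels give times without naming their zero, and the first 12 hours were taken as the subjective day. Values are TPM (transcript counts relative to a fixed sum per library), which also corrects for transcript length. Of 35904 genes, 8747 averaged 5 TPM or more over the 24 libraries and were tested, and 320 genes with a mean between 4.5 and 5 TPM fell just below this limit, with 318 between 5 and 5.5 TPM just above it. Muscle of mice of the same strain, sex and age that had been exposed to intermittent hypoxia (IH, repeated falls in inspired oxygen) for 7 days before the same 2 days of normoxic darkness, and the heart in normoxia, served for comparison, with 24 libraries each.

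Each library held between 20903 and 29241 genes above 0 TPM, and the highest number was that of replicate 3 at 19:30. In replicate 2 at 1:30 the gene model Gm19220 took 32.0% of all TPM, so that the TPM of other genes there was lowered, and the scaling factor of that library was 0.69. Markers of fast skeletal fibres summed to between 86780 and 139970 TPM in all 24 libraries, and the cardiomyocyte list of 10 genes had median sums of 1067 TPM by day and 1070 TPM by night. Nearly all of this was Actc1, which skeletal muscle also makes, with a mean of 1162.5 TPM, and the means of Sbk2, Myh6 and Nppa were 17.6, 3.75 and 1.37 TPM. Of the other cell types, slow fibre markers had a median summed level of 222 TPM by day (range 124 to 797) and 451 TPM by night (139 to 810), and tendon markers 162 TPM by day (91.9 to 247) and 233 TPM by night (116 to 328). Fat markers had a median of 7177 TPM by day (2892 to 16338) and 6423 TPM by night (4547 to 11010). Marrow neutrophil markers had medians of 3.98 TPM by day and 3.14 TPM by night but reached 1310 and 1667 TPM, and their median was 491 TPM in the libraries of replicate 3, against 3.47 and 3.16 TPM in replicates 1 and 2. Of the 8 libraries of replicate 3, 4 lay above all others, the lowest was at 2.31 TPM, and the other replicates reached 662 TPM. Osteoblast markers had medians of 39.2 TPM in replicate 3 and 0.767 and 0.794 TPM in replicates 1 and 2. Libraries of replicate 3 ran from 0.684 to 143 TPM, and the other replicates reached 220 TPM, above all of them. Of all marker lists, 1 member was called between day and night, against 1.02% of all genes tested. It was Ly6c1, of 10 tested endothelial markers, at 0.37 (adjusted p = 0.0109), beside endothelial sums with medians of 546 TPM by day and 564 TPM by night. This low number of calls does not show that the mix of cells was alike by day and night.

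Nearly every muscle fibre carries a molecular clock. The proteins of Arntl (BMAL1) and Clock bind E-boxes and switch on the Per and Cry genes, whose products repress them, as well as Nr1d1, Nr1d2, Dbp, Tef and Bhlhe41. The REV-ERB receptors made from Nr1d1 and Nr1d2 repress genes with ROR elements, among them Arntl, Nfil3 and Cry1, while the products of Dbp, Tef, Hlf and Nfil3 compete for D-boxes. In muscle this clock is known for timing the uptake and storage of glucose, the switch between carbohydrate and fat as fuel, and the level of the myogenic factor Myod1.

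Stretches of promoter that hold these elements are shown for genes whose levels are described below, because they are the letters through which the clock proteins are known to act. They were taken from RefSeq promoter windows of 300 bases (250 before and 50 after the start of transcription, build GRCm38.p6), in which the E-box CACGTG, the D-box TTATGTAA or TTACATAA and the ROR element core TAGGTCA were searched on both strands. The motifs share no letters with each other at the places shown, and capitals mark the motif:
Cry1, E-box, chr10:85185094-85185129, minus strand: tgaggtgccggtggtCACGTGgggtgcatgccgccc
Per1, E-box, chr11:69098768-69098803, plus strand: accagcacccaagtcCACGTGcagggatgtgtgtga
Bhlhe41, E-box, chr6:145865553-145865588, minus strand: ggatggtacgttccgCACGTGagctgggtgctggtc
Tef, E-box, chr15:81802531-81802566, plus strand: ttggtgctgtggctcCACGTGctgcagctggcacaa
Pfkfb3, E-box, chr2:11502123-11502158, minus strand: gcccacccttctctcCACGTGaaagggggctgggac
Ppp1r3c, E-box, chr19:36736688-36736723, minus strand: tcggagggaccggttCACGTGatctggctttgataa
Slc43a1, E-box, chr2:84840244-84840279, plus strand: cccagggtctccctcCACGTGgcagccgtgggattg
Per3, D-box, chr4:151044801-151044838, minus strand: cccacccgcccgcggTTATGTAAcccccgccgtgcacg
Nfil3, ROR element core on the other strand, chr13:52981030-52981066, minus strand: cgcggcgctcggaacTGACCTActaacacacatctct

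The E-box stood in 7.15% of the 32851 windows of all genes and in 10.1% of the 8921 windows of genes tested here. Of the 20 clock genes outside the kinases and ubiquitin enzymes, 17 were matched, and 6 of their 23 windows (26.1%) held an E-box. Genes called higher by day had it in 4 of 29 windows (13.8%), and genes called higher by night in 3 of 71 (4.23%). The D-box stood in 0.938% of all windows and in 0.538% of those of genes tested. It stood in 3 of the 71 windows of genes higher by night and in 0 of the 29 windows of genes higher by day. The ROR element core stood in 2.61% of all windows, in 1.8% of those of genes tested, in 2 of those 71 and in 1 of those 29. These shares are a description, and a motif within a window was not shown to be bound.

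Between day and night, 89 of the 8747 genes were called at an adjusted p of at most 0.05 (limma with Benjamini-Hochberg adjustment, here and below), which is 1.02% of the genes tested. Of these, 60 were higher by night (0.686%) and 29 higher by day (0.332%). Of the 89, 22 differed by at least 1.5-fold (0.252% of the genes tested), 17 of them higher by night. All 89 differed in the same direction within each of the 3 replicate numbers, which hold the same libraries that gave the calls. This sameness is therefore no separate support, and its share over all genes was not counted. The median size of a called difference was 0.38 on the log2 scale, against 0.05 over all genes tested, whose median difference was 0.00. Without adjustment, 928 genes had a p of at most 0.05. The number called depended on the scaling, the terms of the fit and the libraries used. With the replicate number as a block 191 genes were called, 130 of them higher by night, among them all 89. With a term for slow fibre markers the count was 30, and with one for tendon markers 40, both added after the data had been seen. On TPM as deposited, without scaling, 35 genes were called, 32 of them higher by night (91.4% against 67.4%). The count was 60 without replicate 3 at 19:30, 92 without replicate 2 at 1:30, and 13, 19 and 35 when all libraries of replicate 1, 2 or 3 were left out. Leaving out 1 time point gave between 28 calls, without 4:30, and 191 calls, without 1:30, of which 86 were higher by night. Of the 29 genes named below, Nr1d1, Cry1, Nfil3, Tbc1d1 and Arrdc3 were called under all 25 alternatives tried.

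**Figure D1:**
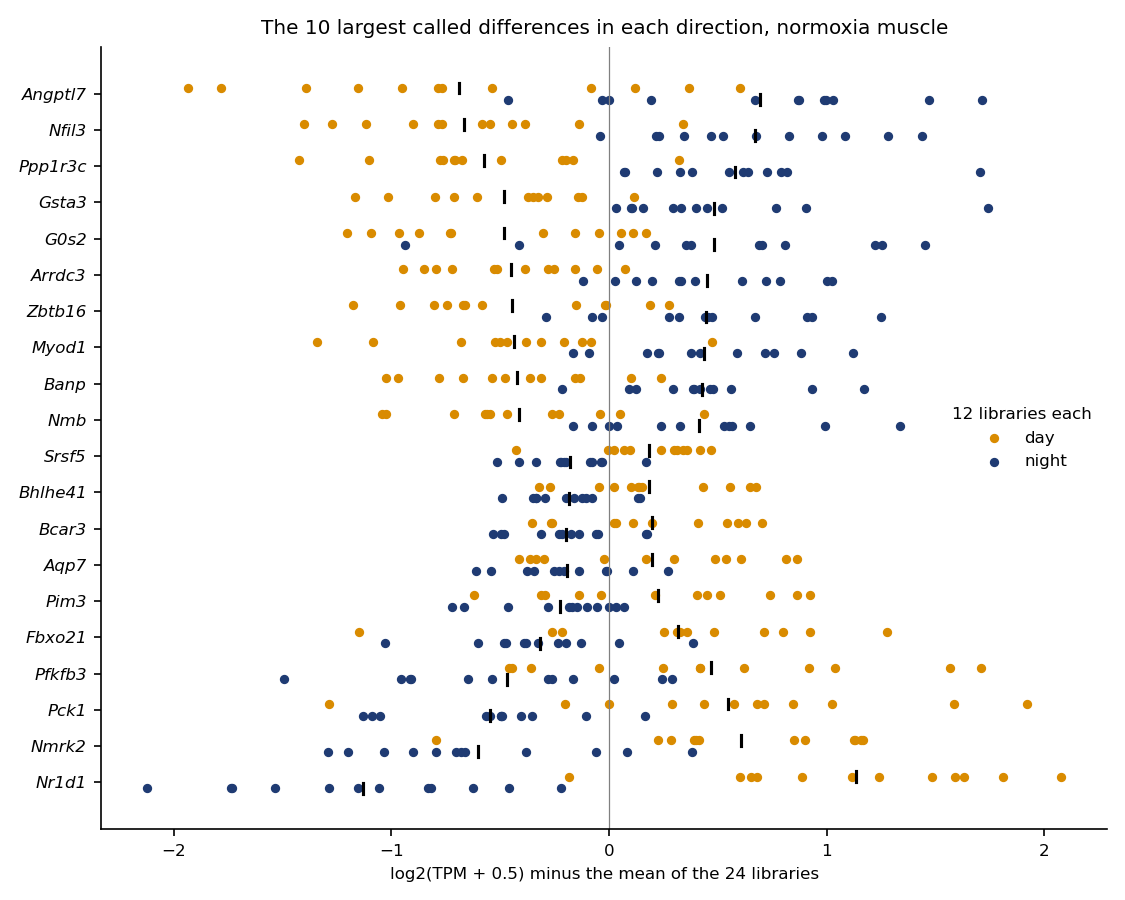
Levels of the 10 genes with the largest called difference in each direction, as log2(TPM + 0.5) of the deposited values minus the mean of the 24 libraries on the horizontal axis, with 1 point per library (orange for day, blue for night, 12 each) and black ticks for the means. The 2 clouds of points stand farthest apart for Nr1d1, with a log2 difference of -2.35, and the next largest are Angptl7 at 1.30, Nmrk2 at -1.29 and Nfil3 at 1.26.

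The largest difference was that of Nr1d1, which encodes REV-ERBα. Its level by day ran from 28.8 to 140 TPM with a median of 74.9, and by night from 7.15 to 28.1 TPM with a median of 15. No night library reached the lowest day library. The level was 5.08-fold higher by day (log2 night minus day -2.35, SE 0.20, adjusted p = 1.43e-07). It was highest at 4:30, at 109 ± 34.8 TPM (SD, n = 3, as for all time points below), and lowest at 19:30, at 10.9 ± 3.66 TPM. Nr1d2, the gene of the related REV-ERBβ, was spread from 20.5 to 47.6 TPM by day and from 12.5 to 49.9 TPM by night, with medians of 39.6 and 28.1, and its difference of -0.48 did not pass (adjusted p = 0.25). Its level climbed later, to 44.6 ± 4.75 TPM at 13:30, so that the highest time points lay on both sides of the border. Among the activating ROR receptors that compete with REV-ERBs, Rora differed by -0.04 (adjusted p = 0.955), and Rorb had a mean of 0.0774 TPM and was not tested.

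Among the repressors, Cry1 alone was called. Day libraries lay between 4.01 and 8.00 TPM with a median of 5.40, and night libraries between 7.48 and 12.3 TPM with a median of 9.07. As deposited, 1 day library, replicate 1 at 1:30, reached into the night range, and after scaling the libraries day and night did not overlap. The level was 1.62-fold higher by night (log2 0.69, SE 0.09, adjusted p = 7.26e-05). Nr1d1 and Cry1 were the 2 genes of the 8747 without overlap after scaling. Per1 ran from 2.28 to 18.5 TPM by day and from 3.06 to 16.8 TPM by night, and Per3 from 2.09 to 9.79 and from 2.01 to 10.7 TPM. Their day and night ranges were nearly the same, with differences of -0.13 and -0.26 (adjusted p = 0.977 and 0.887). Both were low at 1:30 and 22:30 and high from 7:30 to 13:30. Cry2 differed by 0.01 (adjusted p = 0.995). Per2 and Ciart were below the limit of 5 TPM. Per2 went from 0.627 ± 0.215 TPM at 1:30 to 8.64 ± 0.861 TPM at 13:30, and Ciart from 1.11 ± 0.204 TPM at 19:30 to 6.91 ± 2.15 TPM at 7:30.

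The activators Arntl and Clock peaked at the other border. Arntl was at 1.98 ± 0.577 TPM at 10:30 and at 17.7 ± 0.966 TPM at 22:30, with 11.7 ± 4.03 TPM at 1:30. The day and night levels of Arntl therefore overlapped, from 1.43 to 16.1 TPM and from 1.55 to 18.8 TPM, and the difference of 0.47 had an SE of 0.40 (adjusted p = 0.805). Clock moved less, between 3.78 ± 1.12 TPM at 10:30 and 8.02 ± 1.29 TPM at 22:30, with a difference of 0.13 (adjusted p = 0.887). Npas2, which can stand in for Clock, was untested at a mean of 1.28 TPM and had its highest level, 3.37 ± 1.08 TPM, at 22:30.

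**Figure D2:**
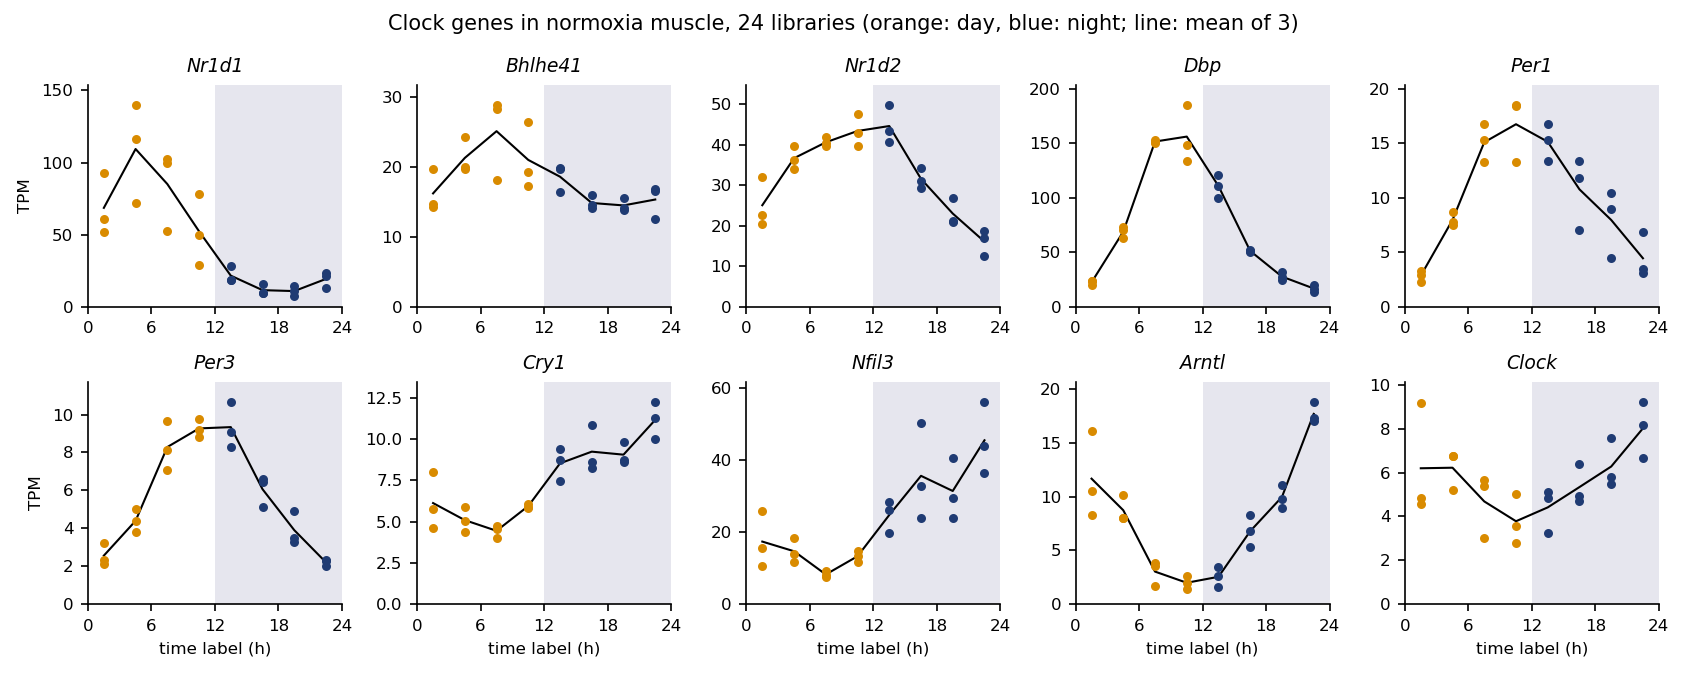
Deposited TPM of 10 clock genes against the time label in hours, with 1 point per library (orange for day, blue for night), a line through the means of 3 libraries and the subjective night shaded. Nr1d1 is high by day and Cry1 and Nfil3 by night, while Dbp, Per1 and Per3 peak near 12 h and Arntl and Clock near 24 h, so that their day and night values overlap.

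Of the output factors, Nfil3 and Bhlhe41 were called, in opposite directions. Nfil3, a repressor at D-boxes, lay between 7.42 and 25.9 TPM by day (median 12.6) and between 19.8 and 56.2 TPM by night (median 31.2). Only the day library of replicate 1 at 1:30 stood above the lowest night libraries. Its level was 2.39-fold higher by night (log2 1.26, SE 0.17, adjusted p = 0.000181). Bhlhe41 (DEC2), a repressor at E-boxes, lay between 14.2 and 29.0 TPM by day (median 19.7) and between 12.6 and 19.8 TPM by night (median 15.8), and was 1.36-fold higher by day (log2 -0.45, SE 0.07, adjusted p = 0.00141). The related Bhlhe40 differed by -0.29 (adjusted p = 0.273). Dbp, an activator at D-boxes and among the most strongly cycling transcripts of most tissues, had medians of 104 TPM by day and 40.8 TPM by night. Its 2.03-fold difference did not pass (log2 -1.02, SE 0.41, adjusted p = 0.33), and the time points within each part of the cycle were far apart, with 22.4 ± 1.77 TPM at 1:30 and 156 ± 26.4 TPM at 10:30. Tef and Hlf differed by -0.21 and -0.11 (adjusted p = 0.543 and 0.964).

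Of the 16 kinases, ubiquitin enzymes and other partners that act on clock proteins, 15 were tested and none was called. Their differences had a median of -0.03, and 1 of the 15 had an unadjusted p of at most 0.05. Over the clock lists without these enzymes, 4 of the 16 genes tested were called, against 1.02% of all genes, and the 20 genes were chosen because such genes are known to cycle.

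Genes of fuel handling were called in both directions. Nmrk2, the muscle-enriched nicotinamide riboside kinase of NAD synthesis, had the largest difference by day after Nr1d1. Its level ran from 57.6 to 226 TPM by day (median 158) and from 40.8 to 131 TPM by night (median 61.9), with overlap. The day level was 2.44-fold higher (log2 -1.29, SE 0.21, adjusted p = 0.00141). Pfkfb3, whose product makes the fructose bisphosphate that speeds glycolysis, ran from 56.1 to 254 TPM by day and from 27.1 to 94.6 TPM by night (medians 104 and 58.3). It was 2.03-fold higher by day (log2 -1.02, SE 0.22, adjusted p = 0.0191), with its highest level of 201 ± 72.1 TPM at 4:30. The call was lost under 10 of 25 alternatives, among them TPM as deposited and the term for slow fibre markers (adjusted p = 0.119, range over the alternatives 0.00294 to 0.389). Tbc1d1, a Rab GTPase-activating protein that holds back the glucose transporter GLUT4, ran the other way. It lay between 4.67 and 11.9 TPM by day and between 8.85 and 20.5 TPM by night, and was 1.66-fold higher by night (log2 0.73, SE 0.10, adjusted p = 0.000181). These 2 were the only calls among 27 tested genes of glucose uptake and glycolysis, against 1.02% of all genes tested. The median difference of the 27 was -0.03.

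Ppp1r3c, also known as PTG, brings protein phosphatase 1 to glycogen and favours its synthesis. By day its level ran from 35.2 to 119 TPM (median 58.8), and by night from 100 to 312 TPM (median 143). Only 1 day library, at 1:30, stood above the lowest night library. The night level was 2.10-fold higher (log2 1.07, SE 0.17, adjusted p = 0.00153). It was the only call among 16 tested genes of glycogen handling, against 1.02% of all genes tested. In the pyruvate dehydrogenase list none of 10 was called, and the nearest was Pdk4, the kinase that turns the enzyme off when fat is burnt, with medians of 74.0 TPM by day and 45.3 TPM by night (log2 -0.67, SE 0.18, adjusted p = 0.0774).

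Of the genes of fat use named here, Cpt1a, Pck1 and Aqp7 were higher by day and G0s2 by night. Cpt1a, the outer carnitine palmitoyltransferase that lets long-chain fatty acids into mitochondria, ran from 3.99 to 10.7 TPM by day and from 4.29 to 8.50 TPM by night, with wide overlap, and was 1.29-fold higher by day (log2 -0.37, SE 0.09, adjusted p = 0.0332). The call was lost under 12 of 25 alternatives, among them each replicate number left out and the term for slow fibre markers (adjusted p = 0.091, range over the alternatives 0.00434 to 0.487). Cpt1a was the only call among 41 tested genes of fatty acid uptake, storage and oxidation, against 1.02% of all genes tested. Of the 41, 5 had a positive and the others a negative difference (median -0.10). Over all 8747 genes, 4151 differences were positive (median 0.00). The tested fat markers had a median difference of -0.17. Brown fat markers, listed after the data had been seen, had medians of 125 TPM by day (11.1 to 270) and 75.2 TPM by night (12.6 to 154). The part of fat cells in the differences of the 41 genes was not tested. Pck1, the phosphoenolpyruvate carboxykinase that fat cells use to make glycerol, ran from 59.2 to 549 TPM by day and from 66.0 to 162 TPM by night (medians 224 and 103). It was 2.26-fold higher by day (log2 -1.18, SE 0.22, adjusted p = 0.00394). Aqp7, a glycerol channel of fat cells, ran from 12.3 to 30.6 and from 10.7 to 20.1 TPM, and was 1.39-fold higher by day (log2 -0.47, SE 0.11, adjusted p = 0.0332).

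Since whole muscle was measured, more cells of a type and more RNA per cell cannot be told apart. Fat markers ran from 2892 to 16338 TPM by day and from 4547 to 11010 TPM by night. With a term for their summed level, added after the data had been seen, Pck1 and Aqp7 differed by -1.09 and -0.45 (adjusted p = 0.000291 and 0.0231). Over all alternatives, the adjusted p ran from 0.000136 to 0.129 for Pck1 and from 0.00528 to 0.60 for Aqp7, and the calls were lost under 2 and 12 of 25. G0s2, an inhibitor of the lipase ATGL, ran from 53.6 to 140 TPM by day and from 64.7 to 341 TPM by night (medians 87.8 and 181). It was 1.84-fold higher by night (log2 0.88, SE 0.21, adjusted p = 0.0399), and the call was lost under 14 of 25 alternatives tried, among them each of the terms for slow fibre and tendon markers (adjusted p = 0.24 and 0.183, within a range over the alternatives from 0.00986 to 0.316).

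Both amino acid transporters that were called differed in direction. Slc43a1 (LAT3), which carries branched-chain amino acids, ran from 7.30 to 17.9 TPM by day and from 8.43 to 11.8 TPM by night, and was higher by day (log2 -0.43, SE 0.08, adjusted p = 0.0038). Slc38a2 (SNAT2), which takes up glutamine and alanine, ran from 13.8 to 41.5 TPM and from 23.8 to 42.5 TPM, and was higher by night (log2 0.49, SE 0.11, adjusted p = 0.0242). Its call was lost under 12 of 25 alternatives, among them each replicate number left out and the term for tendon markers (adjusted p = 0.121, range 0.000801 to 0.247). Among 23 tested genes of amino acid metabolism no other was called, and over all genes tested 1.02% were.

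Myod1 is a myogenic transcription factor and known clock target. It was the only call among 31 tested genes of muscle regulation, growth and atrophy, against 1.02% of all genes tested. Its level lay between 6.48 and 24.0 TPM by day (median 12.7) and between 15.3 and 38.0 TPM by night (median 22.8). Most night libraries stood above most day libraries, with overlap at the edges. The night level was 1.73-fold higher (log2 0.79, SE 0.14, adjusted p = 0.0038). In the sarcomere list none of 38 genes was called, and the smallest p was that of Actn3, the fast-fibre alpha-actinin, at -0.26 (adjusted p = 0.246). None of 28 genes of excitation and calcium handling was called either, with Cacng1 at -0.24 (adjusted p = 0.134). The median differences of these lists were -0.01 and -0.03.

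**Figure D3:**
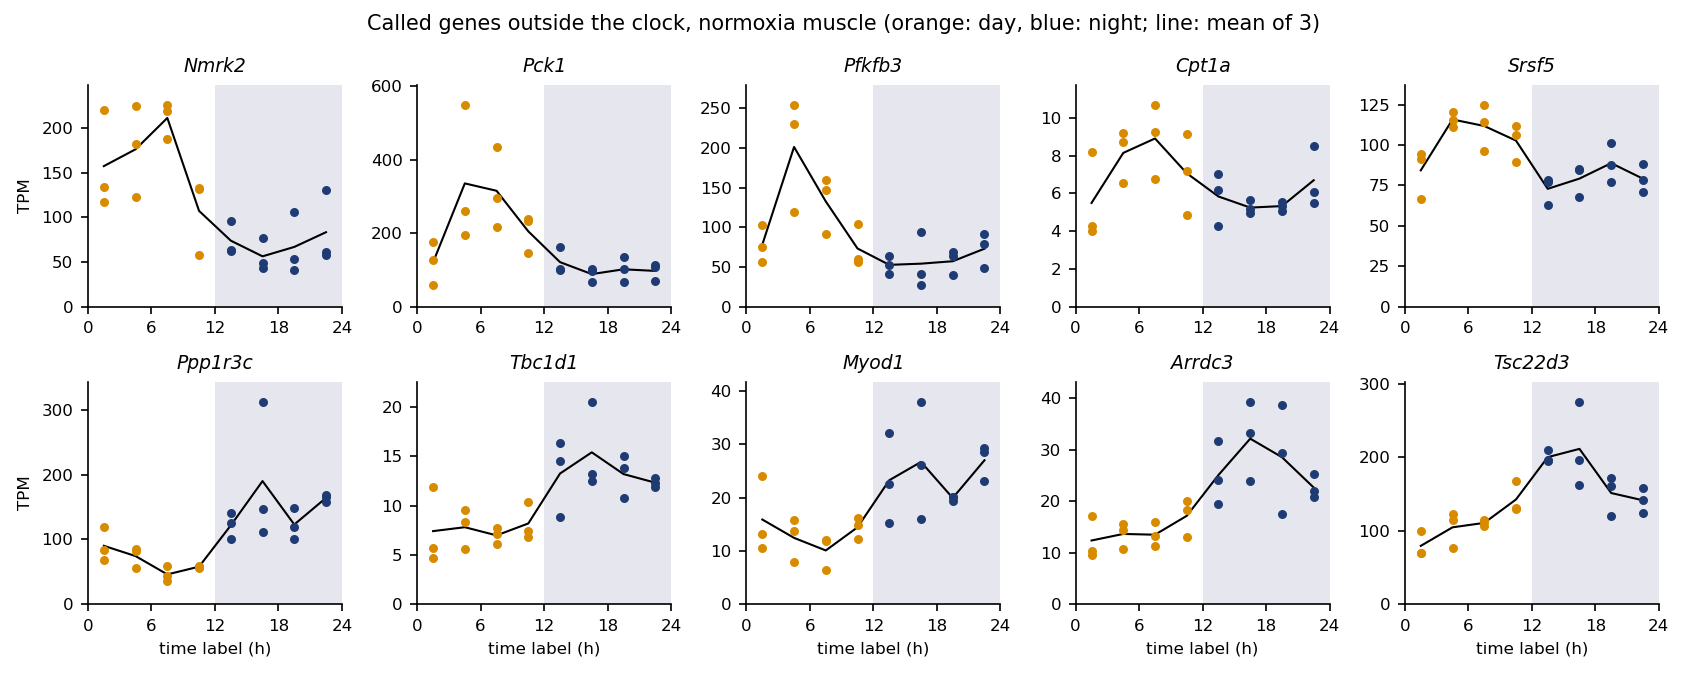
Deposited TPM of 10 called genes outside the clock against the time label in hours, with 1 point per library (orange for day, blue for night), a line through the means of 3 libraries and the subjective night shaded. Nmrk2, Pck1, Pfkfb3, Cpt1a and Srsf5 are higher by day, and Ppp1r3c, Tbc1d1, Myod1, Arrdc3 and Tsc22d3 are higher by night.

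Among targets of the glucocorticoid receptor and chaperones, the few genes called were all higher by night. Tsc22d3 (GILZ) ran from 69.1 to 167 TPM by day and from 120 to 275 TPM by night (medians 113 and 168) and was 1.53-fold higher by night (log2 0.61, SE 0.12, adjusted p = 0.0109). Zbtb16 (PLZF), a zinc-finger repressor, had medians of 11.4 and 24.4 TPM and was 1.75-fold higher by night (log2 0.81, SE 0.15, adjusted p = 0.00378). They were 2 of 18 tested glucocorticoid targets, against 1.02% of all genes tested, and the median difference of the list was 0.13. Of 23 tested heat shock and cold-inducible genes 2 were called, Dnaja1, an HSP40 co-chaperone, at 0.58 (SE 0.10, adjusted p = 0.00239) and Hsp90aa1, an HSP90 chaperone, at 0.40 (SE 0.10, adjusted p = 0.04). Dnaja1 ran from 34.3 to 73.2 TPM by day and from 60.1 to 132 TPM by night. The list had a median of 0.12, with 16 positive differences and 11 unadjusted p of at most 0.05. Over all 8747 genes, 4151 differences were positive and 928 genes had an unadjusted p of at most 0.05. The call of Hsp90aa1 was lost under 16 of 25 alternatives, and that of Tsc22d3 under 7, among them the term for slow fibre markers (adjusted p = 0.0591). The adjusted p of Hsp90aa1 ran from 0.0164 to 0.469 over the alternatives, and that of Tsc22d3 from 0.000405 to 0.327.

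The other large differences by night were of mixed function. Angptl7, a secreted angiopoietin-like protein, ran from 5.33 to 33.3 TPM by day (median 12.5) and from 15.6 to 72.5 TPM by night (median 40.2), and was 2.47-fold higher by night (log2 1.30, SE 0.27, adjusted p = 0.0153). Tendon markers moved the same way, and with a term for them the difference of Angptl7 was 1.04 (adjusted p = 0.18). Myoc, the gene of the secreted protein myocilin, was called at 0.42 (SE 0.10, adjusted p = 0.0394), and at 0.26 with that term (adjusted p = 0.405). Over the alternatives, the adjusted p ran from 0.000881 to 0.389 for Angptl7 and from 0.00722 to 0.405 for Myoc. Arrdc3, an alpha-arrestin that turns over adrenergic receptors, ran from 9.64 to 20.1 TPM by day and from 17.5 to 39.3 TPM by night, and was 1.77-fold higher by night (log2 0.82, SE 0.11, adjusted p = 0.000181). Gsta3, a glutathione transferase with near relatives in the same family, ran from 7.58 to 19.1 and from 18 to 60.0 TPM (log2 0.89, SE 0.15, adjusted p = 0.00246). Banp, a nuclear matrix and chromatin protein, was at 0.78 (SE 0.12, adjusted p = 0.00141), and Nmb, the neuropeptide neuromedin B, at 0.75 (SE 0.16, adjusted p = 0.0158). The call of Nmb was lost under 8 of 25 alternatives.

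By day, the remaining large differences were those of Fbxo21, the substrate receptor of a ubiquitin ligase, at -0.71 (SE 0.16, adjusted p = 0.0301), and Pim3, a serine/threonine kinase, at -0.53 (SE 0.11, adjusted p = 0.0173). These calls were lost under 13 and 10 of 25 alternatives, among them the terms for slow fibre markers (adjusted p = 0.0905 and 0.108) and tendon markers (adjusted p = 0.121 and 0.0789). Over the alternatives the adjusted p ran from 0.000263 to 0.316 for Fbxo21 and from 0.00524 to 0.345 for Pim3. Bcar3, an adaptor of adhesion signalling, was at -0.47 (SE 0.08, adjusted p = 0.00312). Srsf5, a splicing factor, ran from 66.8 to 125 TPM by day and from 62.9 to 101.3 TPM by night (medians 109 and 78.3) and was at -0.45 (SE 0.08, adjusted p = 0.00308). Of the 89 calls, 29 are named here. The 60 others, 43 of them higher by night, had differences between -0.40 and -0.13 by day and between 0.15 and 0.72 by night.

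In 9 of the 17 lists of muscle pathways no gene was called, where 1.02% of all genes tested were called. Beside the sarcomere, excitation and pyruvate dehydrogenase lists these were PPAR and PGC1 regulators (0 of 13), lipid and sterol synthesis (0 of 17), respiratory chain subunits and citrate synthase (0 of 22), immediate early genes (0 of 14), collagens and matrix (0 of 23), and cell cycle and DNA damage (0 of 12). At that share, lists of this size would mostly hold no call, so the absence of calls is no finding about these pathways. Without adjustment, 9 of the 23 matrix genes and 7 of the 38 sarcomere genes had a p of at most 0.05, against 928 of 8747 over all genes. The nearest members were Ppard at 0.16 (adjusted p = 0.144), Scd2 at 0.36 (adjusted p = 0.324), Cs at -0.10 (adjusted p = 0.3), Jun at 0.40 (adjusted p = 0.114), Tnmd at 0.42 (adjusted p = 0.202) and Trp53inp2 at 0.12 (adjusted p = 0.38). Respiratory chain genes lay close together, with a median of 0.02 and a median cosine amplitude of 0.04 on the log2 scale.

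A gene that peaks at the border of day and night shows little difference between them, so a cosine of 24 hours was also fitted to the same libraries. It called 611 of 8747 genes (6.99%), with a median amplitude (peak above the mean) of 0.24 on the log2 scale and a median SE of the peak time of 0.81 h. Of these, 83 were also called between day and night, and 6 of the 89 day-night calls were not called by the cosine. Both fits used the same libraries, so they are not independent. Peaks were most frequent from 9 to 12 h, with 128 genes, and from 12 to 15 h, with 94, and again from 21 to 24 h, with 93, and from 0 to 3 h, with 80. Windows in the middle of the day and of the night held fewer, 36 from 3 to 6 h and 41 from 18 to 21 h. Of the 259 genes that peaked within 2 h of a border, none was called between day and night, while of the 352 that peaked elsewhere 83 were. This split largely follows from where day and night were divided and is no separate finding.

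**Figure D4:**
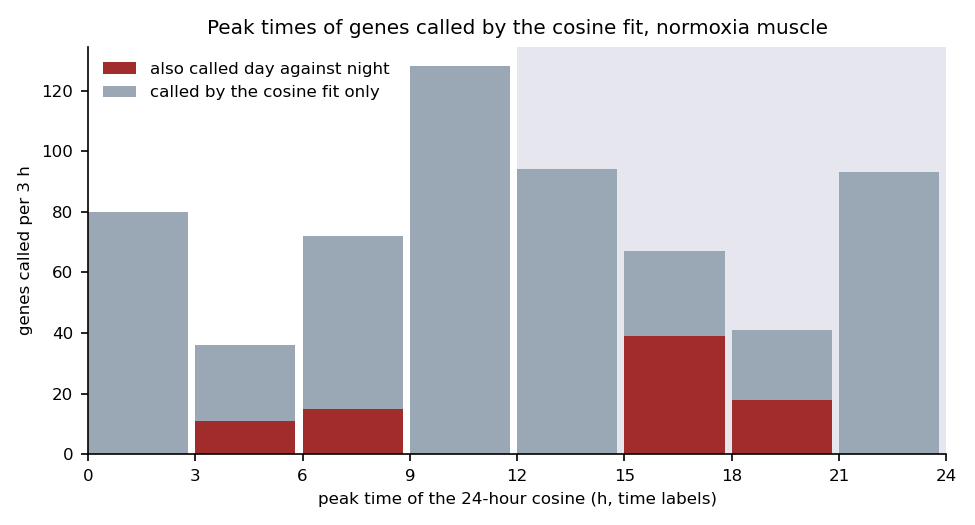
Number of genes called by the cosine fit (vertical axis) by their peak time in windows of 3 h of the time labels (horizontal axis), with genes also called between day and night in red, the others in grey and the subjective night shaded. The highest bars are those from 9 to 12 h and from 12 to 15 h, with 128 and 94 genes, and red is present in 4 windows away from the borders, with 11, 15, 39 and 18 genes.

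Of the 16 tested clock genes outside the kinases and ubiquitin enzymes, the cosine called 14, against 6.99% of all genes tested. Of these 14, 10 had not been called between day and night. Dbp had an amplitude of 1.61 ± 0.06 (SE, log2 scale, as for all amplitudes) and a peak at 10.1 ± 0.15 h (adjusted p = 3.37e-14). The order of the peaks began with Nr1d1 at 5.69 h and Bhlhe41 at 7.36 h. It went on with Bhlhe40 at 9.01 h, Nr1d2 at 9.96 h, Tef at 10.6 h, Per3 at 11.3 h, Hlf at 11.5 h, Per1 at 11.6 h and Cry2 at 11.8 h. The night held Cry1 at 19.1 h, Nfil3 at 19.49 h, Arntl at 23.02 h and Clock at 23.2 h. Neighbours in this order such as Per3, Hlf, Per1 and Cry2, Cry1 and Nfil3, or Arntl and Clock differed by less than the sum of their standard errors, which ran from 0.20 to 0.53 h. Arntl had an amplitude of 1.41 ± 0.07 (adjusted p = 1.33e-11), and Per1 of 1.04 ± 0.10 (adjusted p = 1.14e-06). Among kinases and ubiquitin enzymes, the cosine called Usp2, a deubiquitinase, at 11.8 h (amplitude 0.60 ± 0.05, adjusted p = 6.11e-08).

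Of the 368 muscle pathway genes tested, the cosine called 49, against 6.99% of all genes tested. Several of the 49 had not been called between day and night. In the sarcomere list 2 of 38 were called, and in the respiratory chain, matrix and cell cycle lists none of 22, 23 and 12. Tcap (telethonin), which anchors titin, had an amplitude of 0.37 ± 0.06 with a peak at 12.6 h (adjusted p = 0.00121), and Lmod2, an actin nucleator, 0.60 ± 0.12 at 14.7 h (adjusted p = 0.00465). Pdk4 peaked at 4.17 h (0.61 ± 0.11, adjusted p = 0.00183) and its opponent, the phosphatase gene Pdp1, at 9.51 h (0.24 ± 0.06, adjusted p = 0.0305). Of the fatty acid list 8 of 41 were called, against 6.99% of all genes tested. Among the 8 were Acsl1, which activates fatty acids, at 8.14 h (0.45 ± 0.07, adjusted p = 0.000292), and Slc27a1, a fatty acid transporter, at 9.18 h (0.44 ± 0.06, adjusted p = 0.000276). Hmgcs1 and Idi1 of sterol synthesis peaked at 0.18 h and 23.2 h, and their regulator Srebf2 at 0.24 h (adjusted p = 0.00592, 0.00818 and 0.0132). Glul, the glutamine synthetase, peaked at 13.48 h (0.66 ± 0.09, adjusted p = 4.07e-05), Cebpb at 14.3 h and Cdkn1a, the cell cycle inhibitor p21, at 21.7 h (0.76 ± 0.07, adjusted p = 6.68e-07). Of the follistatin gene Fst the peak was at 1.01 h (0.50 ± 0.06, adjusted p = 2.31e-05).

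The cosine also called genes that the day-night comparison had. Ppp1r3c peaked at 19.4 ± 0.47 h, Myod1 at 18.7 ± 0.60 h, Tbc1d1 at 17.8 ± 0.47 h, Arrdc3 at 17.3 ± 0.39 h and Tsc22d3 at 15.6 ± 0.41 h. By day the peaks were at 4.86 ± 0.57 h for Pfkfb3, 5.23 ± 0.54 h for Nmrk2, 6.09 ± 0.68 h for Cpt1a and 6.86 ± 0.54 h for Pck1. G0s2 and Hsp90aa1 did not pass (adjusted p = 0.157 and 0.171). Levels of G0s2 were high at 13:30 and at 22:30, at 238 ± 51.7 and 264 ± 94.0 TPM, with 137 ± 69.3 and 128 ± 34.2 TPM at the time points between them.

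The same contrast was then made in muscle of mice that had been exposed to IH, which share no library with the normoxia muscle. It called 27 genes (0.309%), 16 of them higher by night, and 17 were shared with normoxia, all in the same direction, which is 19.1% of the normoxia calls and 63.0% of the IH calls. Of the 89 normoxia calls, 87 had the same sign after IH, against 61.8% of all genes tested. An unadjusted p of at most 0.05 with the same sign was found for 62 of the 89, while 12.1% of all genes had an unadjusted p of at most 0.05 after IH. Nr1d1 differed by -2.30 (SE 0.29, adjusted p = 0.000187), Tbc1d1 by 0.77 (SE 0.11, adjusted p = 0.000443) and Cry1 by 0.64 (SE 0.10, adjusted p = 0.00285). G0s2 differed by 1.37 after IH (SE 0.19, adjusted p = 0.000443), and Gsta3 by 1.24 (SE 0.22, adjusted p = 0.00945). Ppp1r3c, Myod1, Arrdc3 and Cpt1a were called as well, at 0.97, 0.86, 0.64 and -0.43 (adjusted p = 0.0163, 0.0147, 0.0163 and 0.0221). Nfil3 had a difference of 0.94 that did not pass (SE 0.23, adjusted p = 0.0685), and Nmrk2 one of -0.54 (SE 0.27, adjusted p = 0.426).

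**Figure D5:**
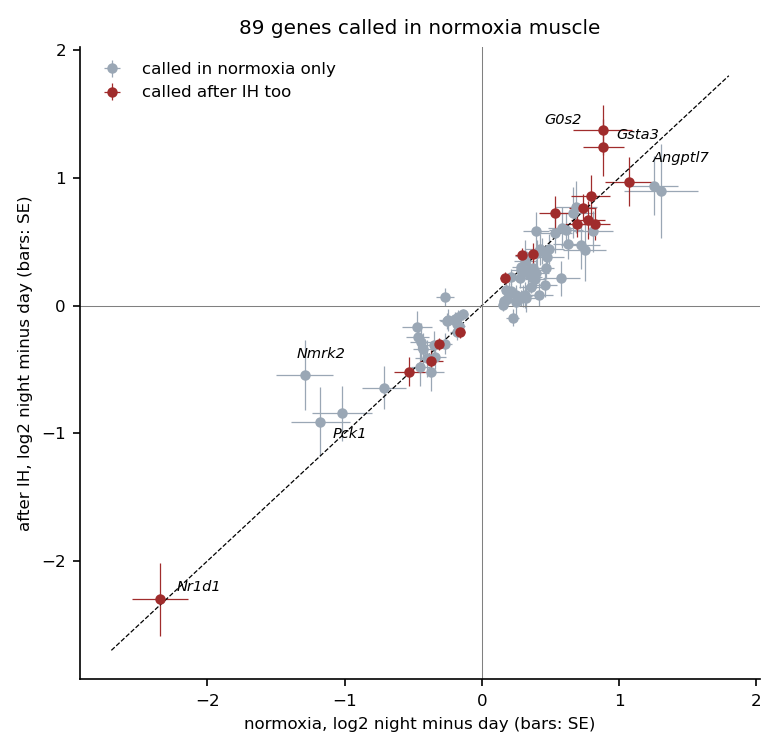
Difference between night and day on the log2 scale in normoxia muscle (horizontal axis) and in muscle after IH (vertical axis) for the 89 genes called in normoxia, with bars for the SE, a dashed line of equal differences and genes also called after IH in red. 87 of the 89 points have the same sign on both axes, and Nr1d1 stands alone at -2.35 and -2.30.

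The difference between the 2 treatments was tested by an interaction term of limma, which called none of the 8747 genes (0% called), with a lowest adjusted p of 1.00 and 199 genes at an unadjusted p of at most 0.05. This does not show that the differences were equal.

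In the heart, the other striated muscle studied, the contrast of day and night called 2 of the 7415 genes that averaged 5 TPM or more in both tissues (0.027%), Nr1d1 at -1.99 and Gsta3 at 0.78, and 301 had an unadjusted p of at most 0.05. Of the 89 calls of the muscle, 68 were tested there and 64 of these had the same sign, against 61.1% of all 7415 genes. Hearts and muscles may come from the same mice, so that the sources of the libraries were not independent. The interaction of tissue with day and night called 2 genes (0.027%), Arrdc3 and Znhit6, at an adjusted p of 0.00046 and 0.0246, and 129 had an unadjusted p of at most 0.05. The level of Arrdc3 in the heart ran from 6.16 to 11.8 TPM by day and from 6.14 to 10.3 TPM by night, with a difference of -0.06 (SE 0.08), against medians of 13.8 and 24.7 TPM and a difference of 0.82 (SE 0.11) in the muscle. For the other muscle calls a difference from the heart was not shown.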

How the data were processed

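RNA of muscle and heart was sequenced as poly(A), paired-end, strand-specific libraries. The authors quantified reads with Kallisto against the Ensembl mouse reference (build mm10 in the submitters' processing notes), and the deposited values are TPM per gene. Counts were not analysed here, so depth and its precision are unknown. The deposited TPM of each library, between 997529 and 998544 in sum, were divided by a factor per library (median ratio to each gene's geometric mean) and compared as log2(TPM + 0.5), which understates changes of low genes. Genes averaging 5 TPM or more were compared by limma 3.58.1 (R 4.3.3) with an intensity trend, 2-sided, with day or night as the only term, so that changes within the day or the night count as spread. A gene was called at an adjusted p of at most 0.05 (Benjamini-Hochberg over all genes tested). The cosine had a period of 24 hours. Named are the clock list members (with 1 item not reported here), the 10 largest calls in each direction, and per further list up to 4 calls with the smallest adjusted p, or the smallest p where none was called. Members and lists were chosen with earlier results of these data known. Promoter sequences are from RefSeq (GRCm38.p6). The scripts were tested on simulated data. The other tissues were not used here. Figures were drawn with matplotlib 3.10.9.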

Additional observations from a re-analysis of the deposited data

Results flagged for a closer look

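The difference between night and day of 2 genes differed between heart and muscle by the interaction term. For Arrdc3 the difference in the heart was lower than that in the muscle by 0.89 on the log2 scale (interaction -0.89, SE 0.14, adjusted p = 0.00046), with means of 14.2 ± 3.34 TPM by day and 27.1 ± 7.31 TPM by night in the muscle and of 8.27 ± 1.82 and 7.72 ± 1.42 TPM in the heart (SD, n = 12 each). For Znhit6 the interaction was -0.33 (SE 0.07, adjusted p = 0.0246), with means of 9.67 ± 1.71 and 10.8 ± 0.93 TPM in the muscle and of 8.11 ± 1.68 and 6.63 ± 0.95 TPM in the heart, and neither tissue's own difference passed (adjusted p = 0.572 and 0.076). Over the alternatives the adjusted p ran from 5.78e-05 to 0.146 for Arrdc3, which lost the call without replicate 1 and without replicate 2, and from 0.0183 to 1.00 for Znhit6, which lost it under 13 of 20. The fit treats heart and muscle libraries as independent, and both may have been taken from each mouse.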

How the results depend on the processing

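Of 132 counts of calls under alternatives, 74 equalled the value reported or stayed within 1.5 times of it. These include every alternative of the interaction of IH with day and night, whose count was 0 throughout. The 74 are therefore no measure of how stable the other counts were. Among the 29 genes named as called, 24 lost the call under at least 1 of 25 alternatives and none changed direction. For 89 calls of day against night, the count was 35 on TPM as deposited, 37 with no minimum TPM and 135 with time point as a factor. Leaving out each replicate number gave 13 to 35 calls. Leaving out time points gave 191 without 1:30, 28 without 4:30, 36 without 7:30, 55 without 13:30, 33 without 16:30 and 53 without 19:30. Alternatives chosen after seeing the data gave 92 calls (cosine 548) without replicate 2 at 1:30 and 60 (cosine 587) without replicate 3 at 19:30. Terms added likewise gave 160 calls for fat, 30 for slow fibre and 40 for tendon markers. With the 1.5-fold threshold the 22 calls became 9 to 15 without a replicate number, 37 without 1:30, 13 without 4:30, and 14 with the term for slow fibre as for tendon markers. The 611 calls of the cosine became 131 on TPM as deposited, 189 to 353 without a replicate number, 405 without 7:30, 383 without 10:30 and 335 without 13:30. The 27 calls after IH became 17 on TPM as deposited, 7 with no minimum TPM and 184 with time point as a factor, 0 to 10 without a replicate number, and 103, 6, 8, 94, 69, 11, 17 and 54 without 1:30, 4:30, 7:30, 10:30, 13:30, 16:30, 19:30 and 22:30. The 2 calls of heart against muscle became 1 on TPM as deposited, with a mean of at least 1 TPM, without 4:30, 10:30, 13:30, 16:30 or 19:30 and with time point as a factor, 4 without 1:30, and 0 to 1 without a replicate number. The cause of these changes was not tested, and the fits that left out a replicate number, time point or library also had fewer libraries.

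With a replicate block the calls were 191 for day against night, 28 with the 1.5-fold threshold, 1110 for the cosine and 41 after IH, and 1 for heart against muscle with a block by animal. Libraries with the same number tended to deviate together, with a correlation over 0.1 in 67 of 84 pairs (median 0.31, range -0.23 to 0.71), and 19 of 24 correlated best with their own number. Other pairs had a median of -0.20. Deviations were taken from the mean of each time point, so positive values of same-numbered pairs push those of other pairs to the negative side. The median of other pairs is therefore no separate comparison. The numbers were not taken to pair mice, because each mouse gave 1 muscle library, no label says what a number marks and not every pair passed 0.1. Without read counts, the depth of each library and the precision it gives for low genes are unknown. Per2 was left untested by the limit of 5 TPM.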

Other observations

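The called genes given here lie outside the rule for naming and were chosen after their values were seen, so they stand for themselves and for no group. By day, Khdrbs1, an RNA-binding protein of splicing, was higher (-0.16, adjusted p = 0.0364). Higher by night were Dnajb4, an HSP40 family member, at 0.28 (adjusted p = 0.0364) and Ahsa2, related to an activator of HSP90, at 0.28 (adjusted p = 0.0255). Of the 23 tested genes of the heat shock list 2 were called, against 1.02% of all genes tested. Also higher by night were the ciliary neurotrophic factor receptor Cntfr at 0.63 (adjusted p = 0.00246), angiogenin (Ang) at 0.40 (adjusted p = 0.00385), Il34 at 0.35 (adjusted p = 0.0445) and the growth factor Hbegf at 0.32 (adjusted p = 0.0257). Mgp, the matrix Gla protein, Timp4, a metalloproteinase inhibitor, and Sulf1, a heparan sulfatase, were higher by night, at 0.46, 0.53 and 0.39 (adjusted p = 0.0122, 0.0332 and 0.00385), beside tendon markers with medians of 162 TPM by day and 233 TPM by night, whose part in these differences was not tested. In the list of collagens and matrix none of 23 tested genes was called, and 8 had a positive difference (median -0.09). All p-values are limma values with Benjamini-Hochberg adjustment over the genes tested.

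Among the 7 genes with a cosine amplitude of at least 1 on the log2 scale were, beside Nr1d1, Angptl7, Dbp, Arntl and Per1, the arrestin gene Arrdc2 with 1.06 and a peak at 13.98 h (adjusted p = 6.99e-05) and the gene model Gm28661 with 1.82 and a peak at 15.1 h (adjusted p = 0.0271), whose reads may be shared with near copies. Cys1 and Tspan4 had amplitudes of 0.78 and 0.73, with peaks at 14.8 h and 12.3 h (adjusted p = 7.15e-09 and 9.48e-09). After IH, Angptl8 and Ppp1r3b were called at 2.30 and 1.60 higher by night (adjusted p = 0.0094 and 0.0117), and in normoxia they had differences of 1.49 and 1.25 that did not pass (adjusted p = 0.132 and 0.094).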
